A study of Mus musculus with 22 samples.

Results

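The genes described here are 9 regulators of the eye field and of retinal progenitor cells: Rax, Pax6, Six3, Six6, Lhx2, Sox2, Nr2e1, Hes1 and Hes5. The histone mark H3K27me3 was mapped in mouse retina by CUT&RUN, in which a nuclease tethered to an antibody cuts free the DNA around marked nucleosomes. Every row of the deposited peak table whose gene name was one of the 9 was taken, which gave 5 of 19034 peaks. They belonged to 4 genes: Lhx2, Pax6 and Hes1 with 1 peak each and Nr2e1 with 2. No row was assigned to Rax, Six3, Six6, Sox2 or Hes5.

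All animals were C57BL/6 at embryonic day 18.5, and their mothers had received 75 µg of tamoxifen per g at E10.5. The 5 conditional knockouts (cKO) were Jarid2 fl/fl; Rx-cre. Of the 5 controls, 3 were Jarid2 fl/+ and 1 was Jarid2 fl/fl, all without Cre, and control replicate 1 was Jarid2 fl/+; Rx-cre. The protocol text calls the controls Jarid2 fl/fl, and the sample labels were followed. It names the driver Rax-CreERT2, a Cre tied to Rax, itself one of the 9 genes. Whether the driver alters the Rax locus, and in what share of retinal cells Jarid2 was lost, was not stated in those labels. Batch 1 was a single litter with females and males, 2 cKO and 2 control. Batch 2 consisted of male littermates, 3 cKO and 3 control. Both retinas of an animal were pooled. Technical duplicates in batch 2 differed by less than sampling noise and were summed, so an animal was 1 sample, with 1688368 to 2864080 reads in peaks. The sources do not say whether the counts are of reads or of fragments, and they are called reads. A level of a repressive mark gives no direct check of the tissue label or of the deletion.

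H3K27me3 is laid down by Polycomb repressive complex 2 (PRC2), and Jarid2 is an accessory subunit that helps the complex to find its targets, which are mostly CpG-rich promoters of silent developmental genes. The eye field genes encode transcription factors that act together to specify the eye and then keep retinal progenitors dividing. Rax, Pax6, Six3, Six6 and Lhx2 are homeobox genes, Sox2 encodes an HMG-box factor, and Nr2e1 (also known as Tlx) encodes an orphan nuclear receptor. Hes1 and Hes5 encode repressors of the basic helix-loop-helix class that Notch signalling switches on and that hold back neuronal differentiation.

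The 250 bases before a RefSeq start site (build GRCm38.p6, which mm10 represents) are shown for 3 genes with a peak there and for 2 without, since CpG content is the sequence feature linked to PRC2. They run 5′ to 3′ in the direction of transcription, and capitals mark each CG dinucleotide. The windows are chr2:38339031-38339280 (plus strand) for Lhx2, chr10:42583591-42583840 (minus strand) for Nr2e1, chr2:105668646-105668895 (plus strand) for Pax6, chr3:34649745-34649994 (plus strand) for Sox2 and chr4:154960673-154960922 (plus strand) for Hes5.
Lhx2, under a peak: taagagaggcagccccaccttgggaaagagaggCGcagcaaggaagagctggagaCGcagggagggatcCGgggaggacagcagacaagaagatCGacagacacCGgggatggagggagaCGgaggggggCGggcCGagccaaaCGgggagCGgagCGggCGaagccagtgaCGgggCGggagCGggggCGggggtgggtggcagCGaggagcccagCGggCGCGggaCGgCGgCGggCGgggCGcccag
Nr2e1, under a peak: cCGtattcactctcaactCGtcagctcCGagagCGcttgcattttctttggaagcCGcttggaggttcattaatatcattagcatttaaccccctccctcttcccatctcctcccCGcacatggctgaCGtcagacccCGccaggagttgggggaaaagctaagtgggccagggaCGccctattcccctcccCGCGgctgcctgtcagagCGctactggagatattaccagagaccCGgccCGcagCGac
Pax6, under a peak: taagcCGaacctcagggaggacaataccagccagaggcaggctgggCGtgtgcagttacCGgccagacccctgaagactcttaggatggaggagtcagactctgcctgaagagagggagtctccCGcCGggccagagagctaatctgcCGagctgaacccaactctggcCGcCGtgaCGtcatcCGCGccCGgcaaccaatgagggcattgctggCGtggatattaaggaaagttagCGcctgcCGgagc
Sox2, under no peak: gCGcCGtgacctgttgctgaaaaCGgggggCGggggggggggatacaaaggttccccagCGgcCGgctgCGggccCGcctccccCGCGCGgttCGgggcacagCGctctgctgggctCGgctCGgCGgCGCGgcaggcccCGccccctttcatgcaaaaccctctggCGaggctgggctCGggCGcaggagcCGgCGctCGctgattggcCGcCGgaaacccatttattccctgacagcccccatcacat
Hes5, under no peak: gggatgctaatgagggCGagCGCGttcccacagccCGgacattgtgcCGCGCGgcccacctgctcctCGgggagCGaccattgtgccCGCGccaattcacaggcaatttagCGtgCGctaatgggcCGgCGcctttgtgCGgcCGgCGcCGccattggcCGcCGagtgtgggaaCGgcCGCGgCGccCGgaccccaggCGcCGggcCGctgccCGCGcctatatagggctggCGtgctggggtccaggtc

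The number of CG in the window did not follow the presence of a peak among these genes. The promoters of Hes5 and Sox2, under no peak, held 32 and 27 CG. Those under a peak held fewer, with 25 at Lhx2 and 15 each at Nr2e1 and Pax6. The promoters of Six6 and Six3, also under no peak, held 17 and 10. Across all 32851 RefSeq promoters of the same length the median was 6 CG, so all 7 genes with an entry lay above it. The median was 10 for the 4738 promoters under a peak and 5 for the others. The set of RefSeq promoters used here held 9 start sites for 7 of the 9 genes, and 3 of the 9 start sites lay under a peak. It had no entry for Hes1 or Rax, although both have a RefSeq gene body. Of the 12417 promoters with at least 10 CG, the lowest number among the members, 19.9% lay under a peak, against 14.4% of all promoters. The letters TGGGAA, which occur in sites of the Notch effector Rbpj and hold no CG, were found on either strand 2 times in the Hes5 window, once in that of Nr2e1 and once in each of the 2 Lhx2 windows, and in none of the others. They were present in 21.6% of all promoters.

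The 5 member peaks were 2511 to 11661 bp wide, against medians of 2791 bp over all peaks and 4321 bp over promoter peaks of protein-coding genes. The Lhx2 peak was the widest of the 5. It was 11661 bp wide (chromosome 2, 38334920 to 38346580), wider than 92.5% of all peaks, and ran from 4361 bp before the first RefSeq start site to 7299 bp past it, over the promoter and the front of the gene. A second Lhx2 start site lay 4728 bp beyond its end. The Pax6 peak (chromosome 2, 105665020 to 105669760) was 4741 bp wide, wider than 69.8% of all peaks, and covered the most upstream start site, from 3876 bp before it to 864 bp after it. The next start site of Pax6 in the RefSeq set used lay 12703 bp beyond this peak and carried none.

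Nr2e1 had 2 peaks on chromosome 10. The peak over its start site (42583250 to 42586610) was 3361 bp wide, wider than 57.0% of all peaks, and reached 3020 bp upstream. The other (42577900 to 42580890), 2991 bp wide and wider than 52.5% of all peaks, began 2700 bp inside the gene. The deposited annotation assigns the peaks to different transcripts of Nr2e1 and gives both a distance of 0 from a start site. The Hes1 peak (chromosome 16, 30060510 to 30063020) was the narrowest, with 2511 bp, wider than 45.8% of all peaks. Its distance to an annotated start site is -1364 bp in the deposited table (upstream), and it ended 2337 bp from the RefSeq gene body, so that the gene itself carried no peak.

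Levels can be compared between genes only per length, as CPM (counts per 1000000 reads in peaks, with TMM-scaled library sizes) per kb of peak. Lhx2 had the highest level, 8.97 ± 0.527 CPM per kb in cKO and 10.8 ± 1.49 in control animals (SD, n = 5 each here and below). Hes1 followed with 5.49 ± 1.71 in cKO and 7.73 ± 1.76 CPM per kb in control animals. The ranges of these neighbours overlapped in controls, where the lowest Lhx2 value was 9.31 and the highest Hes1 value 10.2, but not in cKO, where they were 8.12 and 7.31. The Nr2e1 peak inside the gene had 3.96 ± 1.17 CPM per kb in cKO and 5.04 ± 1.43 in control animals, and the Pax6 peak 4.11 ± 1.91 in cKO and 4.50 ± 0.39 in control animals. The Nr2e1 start-site peak was lowest, with 2.97 ± 0.702 CPM per kb in cKO and 3.88 ± 0.591 in control animals. The ranges of these lowest levels across animals overlapped in both groups. The levels were not compared animal by animal, so a difference within animals is not excluded.

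Set against 7188 promoter peaks of protein-coding genes, whose median level was 6.95 CPM per kb in cKO and 6.86 in control animals, the Nr2e1 and Pax6 peaks were low. In controls, 15.6% of those peaks had a lower level than the Nr2e1 start-site peak, 24.6% than Pax6, 31.9% than the Nr2e1 peak inside the gene, 55.5% than Hes1 and 69.5% than Lhx2. By width, 29.5% of those peaks were narrower than the Hes1 peak, 53.6% than Pax6 and 87.3% than Lhx2. It was 35.5% for the Nr2e1 peak inside the gene and 39.7% for its start-site peak.

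**Figure D1:**
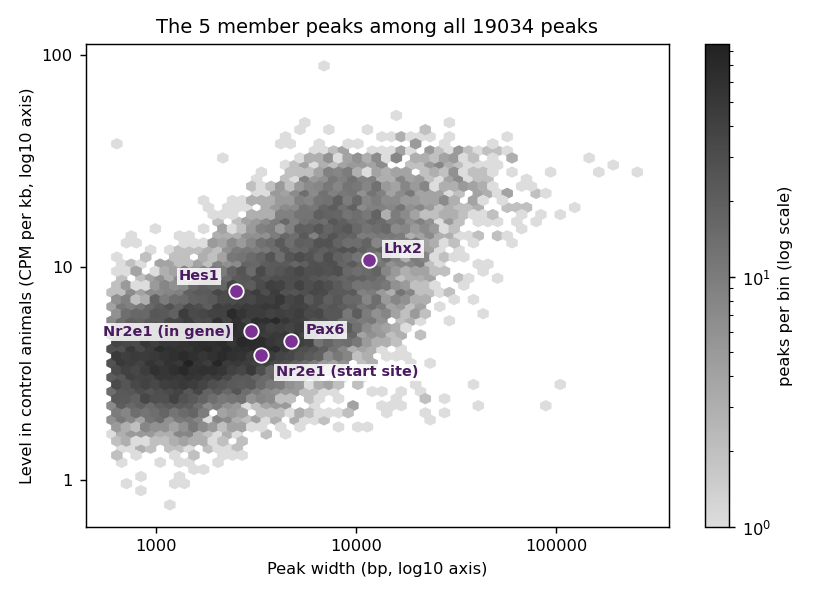
Width of each of the 19034 peaks in bp against its mean level in the 5 control animals in CPM per kb, both on log axes, with darker bins holding more peaks. Purple points are the 5 member peaks: Lhx2 is the widest of these, at 11661 bp, and the peaks of Pax6, Hes1 and Nr2e1 lie within the bulk.

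The 5 genes without a peak differed in what lay around them. Sox2 (chromosome 3, 34649995 to 34652461) had no peak over it but was closely flanked. A peak of 7771 bp assigned to Gm42692 ended 3.62 kb before the gene. Another of 7051 bp, assigned to Gm42693, began 5.14 kb after it. Both are predicted noncoding genes. Six3 lay 36.2 kb from the nearest peak, which was assigned to its paralog Six2. Six6 lay 73.9 kb from the nearest one. Hes5 lay 53.0 kb from a peak assigned to Prxl2b, and Rax (chromosome 18, 65934639 to 65939089) 58.0 kb from a peak assigned to Grp. Reads were counted in peaks only, so the level over these gene bodies, and any change in it, was not measured.

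**Figure D2:**
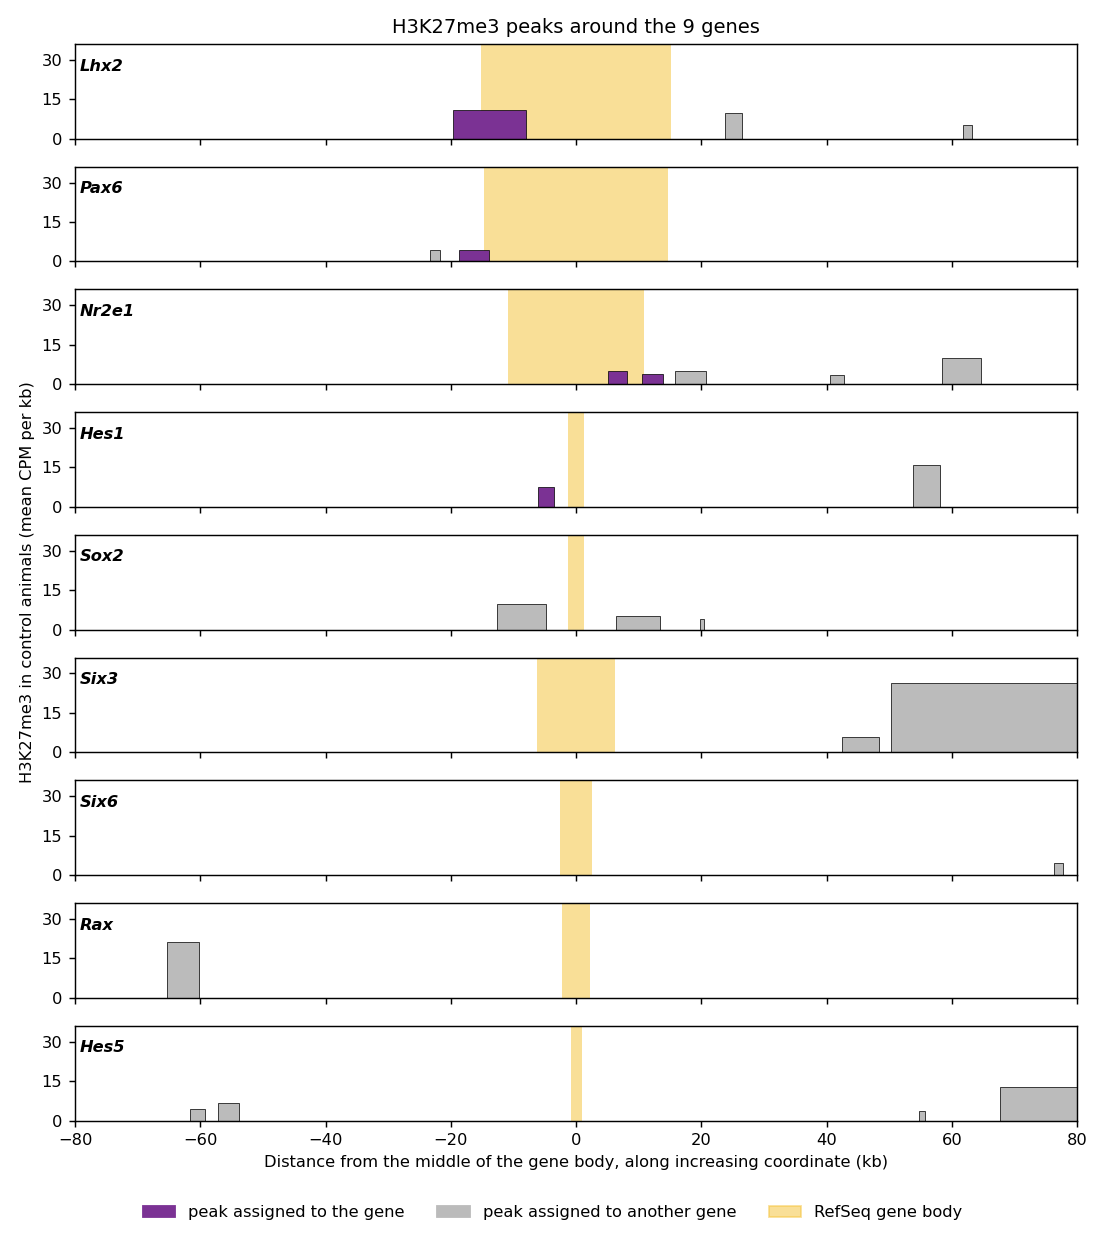
Peaks within 80 kb of the middle of each RefSeq gene body (yellow), with mean H3K27me3 in the 5 control animals as bar height in CPM per kb and peak width to scale. Peaks assigned to the gene (purple) are seen only at Lhx2, Pax6, Nr2e1 and Hes1; Sox2 sits between 2 peaks of other genes, and Six3, Six6, Rax and Hes5 have none within 30 kb.

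The marking of these genes can be set beside their paralogs, a list of 33 genes such as Six2, Lhx9 and Pax3. Of these, 26 had a peak, against 4 of the 9 members. With the peaks of a gene summed, the median gene had 23.9 CPM per kb in cKO and 25 in control animals for the paralogs, and 4.8 in cKO and 6.11 in control animals for the 4 members. The median summed peak width was 24.3 kb for the paralogs and 5.55 kb for the members, of which Lhx2 had 11.7 kb. In controls the paralogs ran from 6.55 CPM per kb (Hes7, a cycling Notch target of the somites) to 51.8, and the highest member, Lhx2, had 10.8. The paralogs were the highest of the lists used here. The control median was 17.3 CPM per kb for other eye field and progenitor genes and 21.7 for retinal neuron regulators. It was 8.41 for other Notch pathway genes and 9.05 for genes of the pigment epithelium, vessels, microglia, lens and astrocytes, nearer to the members. No test of these differences was made, since the lists were chosen with these data known.

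The cKO animals were compared with controls to ask whether H3K27me3 at these genes differed between them. All cKO animals carried Rx-cre, and control replicate 1 was the only control that did. Loss of Jarid2 and presence of the driver therefore cannot be told apart in batch 2, and in batch 1 only 1 control carried the driver. H3K27me3 was lower in cKO at Lhx2 and at Nr2e1, each by less than 1.5-fold, while the values at Hes1 and Pax6 differed between the batches. Counts were scaled to the reads in peaks, so these changes are relative to other peaks, and a change shared by all peaks would not show. Summed over the peaks of a gene, 2 of the 4 member genes fell and 0 rose at an adjusted p under 0.05 (edgeR quasi-likelihood test with batch as a term), against 9.78% of all 11324 genes tested, of which 939 fell and 168 rose. All 4 passed the filter on low counts. By single peaks 1 of 5 fell, against 8.84% of 16307 peaks. All 4 member genes had a negative log2 fold change, with a median of -0.32, whereas the median of all genes was 0.015. Most tested genes of 3 other lists were negative too: 14 of 16 other eye field and progenitor genes, 14 of 15 retinal neuron regulators and 20 of 26 paralogs. Of other Notch pathway genes 8 of 17 were negative, and of pigment epithelium, vessel, microglia, lens and astrocyte genes 5 of 8. Over all genes it was 5303 of 11324. With 4 genes, these shares are a description. In whole retina, fewer marked cells and less mark per cell cannot be told apart.

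Lhx2, which is needed for the optic vesicle to form an optic cup and later keeps progenitors multipotent, had 104, 111, 107, 106 and 94.7 CPM in cKO replicates 1 to 5, against 140, 147, 109, 121 and 110 CPM in control replicates 1 to 5. Every cKO animal was below every control animal of its own batch, although the groups overlapped across batches. The mean was 105 ± 6.14 CPM in cKO and 126 ± 17.4 CPM in control animals, which is 1.20-fold lower in cKO. On the log2 scale the difference was -0.26 ± 0.07 (SE; adjusted p = 0.0203 in edgeR). It was -0.42 in batch 1 alone and -0.16 in batch 2 alone. The call was lost in batch 1 alone (adjusted p = 0.184), in batch 2 alone (0.36), without a batch term (0.113), with total-count scaling (0.0525), with DESeq2 (0.057) and without any 1 of cKO replicates 1, 2 and 5 and control replicates 2 and 4 (0.055 to 0.073).

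Nr2e1, which keeps retinal progenitors and neural stem cells proliferating, had 27.4, 25.4, 15.2, 21.7 and 19.6 CPM over its 2 peaks in cKO replicates 1 to 5, against 35.1, 33.1, 24.4, 24.1 and 23.8 CPM in control replicates 1 to 5. Here too every cKO animal was below every control animal of its batch. The mean was 21.8 ± 4.84 CPM in cKO and 28.1 ± 5.51 CPM in control animals, which is 1.30-fold lower in cKO. On the log2 scale the difference was -0.38 ± 0.11 (SE; adjusted p = 0.0298 in edgeR), and it was -0.38 in each batch alone. Taken singly, the peak inside the gene had -0.36 ± 0.15 (adjusted p = 0.18) and the start-site peak -0.38 ± 0.16 (0.202), so neither passed the threshold. With 38 to 71 reads per animal, the call of the sum was lost in each batch alone (0.353 and 0.212), without a batch term (0.244), with total-count scaling (0.0814), with DESeq2 (0.224) and without cKO replicate 1, 2 or 3 or any of control replicates 1 to 4 (0.0505 to 0.138).

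Hes1, the main Notch effector of retinal progenitors together with Hes5, had 10, 8.95, 18.3, 17.7 and 14.0 CPM in cKO replicates 1 to 5, against 25.7, 18.7, 13.3, 19.1 and 20.2 CPM in control replicates 1 to 5. In batch 1 both cKO animals were below both controls, while in batch 2 the groups overlapped. Over both batches the log2 fold change came to -0.45 ± 0.20 (SE; adjusted p = 0.174 in edgeR), -1.25 in batch 1 alone and -0.06 in batch 2 alone. It passed the threshold only without control replicate 3 (adjusted p = 0.0475), the lowest control. Leaving out 1 animal gave -0.61 to -0.26, with the value nearest 0 without control replicate 1, the control that carries Rx-cre. The mean over batch 1 was 9.49 CPM in cKO and 22.2 CPM in control animals, and over batch 2 it was 16.7 CPM in cKO and 17.5 CPM in control animals.

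Pax6, an eye field gene that keeps progenitors able to form all retinal cell types, moved in opposite directions in the batches. It had 7.92, 11.4, 26.7, 24.7 and 26.6 CPM in cKO replicates 1 to 5, against 21.8, 18.1, 22.3, 22.6 and 22 CPM in control replicates 1 to 5. In batch 1 both cKO animals were below both controls, and in batch 2 all 3 cKO animals were above all 3 controls. The mean was 19.5 ± 9.07 CPM in cKO and 21.3 ± 1.85 CPM in control animals, and the log2 fold change over both batches was -0.13 ± 0.17 (SE; adjusted p = 0.727 in edgeR). It was -1.05 in batch 1 alone and 0.21 in batch 2 alone. The fewest reads in this peak were 15, in cKO replicate 1, with an exact 95% Poisson interval of 8.40 to 24.7 reads that covers counting error only.

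The difference in effect between batches was tested for every gene as an interaction in edgeR, where 2 of 11324 genes (0.0177%) passed. None of the 4 members did. The adjusted p was 0.209 for Pax6 (unadjusted 1.2e-04), 0.488 for Hes1 (unadjusted 0.00173), 0.999 for Lhx2 (unadjusted 0.0427) and 1.0 for Nr2e1. Batch 1 held both sexes and batch 2 males, so batch and sex cannot be told apart in this difference. In the authors' deposited table the Pax6 peak has a log2 fold change of -0.72 with an adjusted p of 0.00704, and the Nr2e1 peak inside the gene 0.63 with 0.0351. Its header names no contrast, and its test statistic has the opposite sign to its fold change at all 5 member peaks, so these columns disagree on direction. Over 9387 peaks with a mean of at least 20 reads, its fold changes followed batch 1 minus batch 2 (Pearson r = 0.966, across peaks). They followed cKO minus control less closely (r = 0.489). In sign, the fold changes thus went with batch 1 minus batch 2. They were therefore not read as an effect of genotype.

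**Figure D3:**
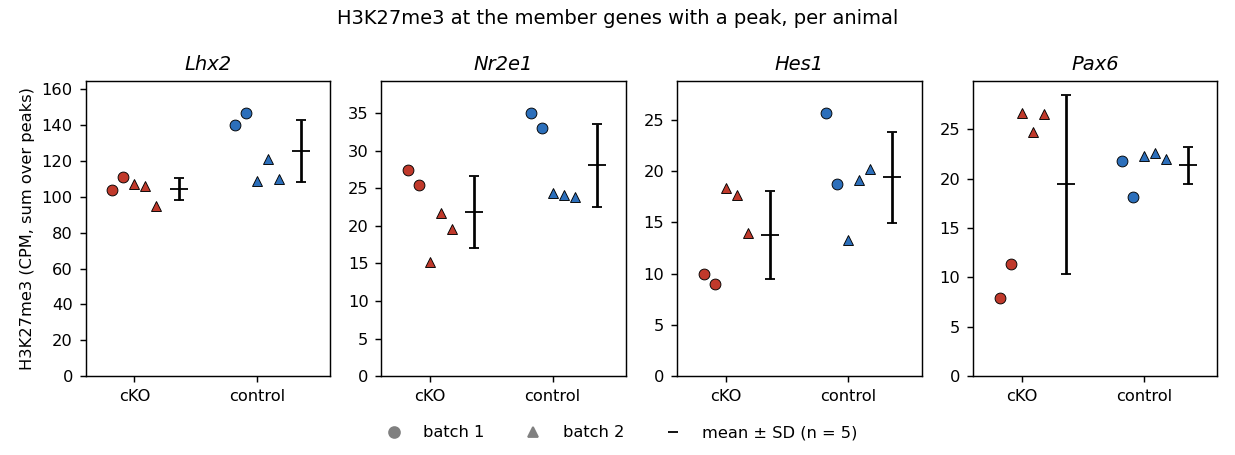
H3K27me3 in CPM, summed over the peaks of each gene, in each cKO (red) and control (blue) animal, with circles for batch 1, triangles for batch 2 and mean ± SD over 5 animals. At Lhx2 and Nr2e1 each cKO animal lies below the controls of its batch; at Hes1 the groups separate in batch 1 only, and at Pax6 they separate in opposite directions.

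Peaks of other genes within 10 kb of a member were examined next, a choice made after the peak table was seen. The 2 peaks that flank Sox2, which encodes a factor needed for retinal progenitors to proliferate and become neurons, both fell in cKO. The Gm42692 peak had 70.7, 83.0, 45.5, 49.9 and 45.2 CPM in cKO replicates 1 to 5, against 76.2, 96.0, 73.7, 69.3 and 59.7 CPM in control replicates 1 to 5. It was lower in all 5 cKO animals than the control mean of the batch, and the log2 fold change was -0.37 ± 0.10 (SE; adjusted p = 0.0161 in edgeR). The Gm42693 peak had 22.2, 29.3, 29.1, 28.7 and 28.4 CPM in cKO replicates 1 to 5, against 43.0, 41.2, 37.7, 37.4 and 27.8 CPM in control replicates 1 to 5. Its log2 fold change was -0.43 ± 0.12 (adjusted p = 0.0223), again with all 5 cKO animals below the control mean of their batch.

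The fold changes differed between the batches. Gm42692 had -0.16 in batch 1 alone and -0.55 in batch 2 alone, and Gm42693 had -0.70 in batch 1 alone and -0.28 in batch 2 alone. The call at Gm42692 was lost in batch 1 alone (adjusted p = 0.725), without a batch term (0.288) and without any 1 of cKO replicate 3 and control replicates 3 and 4 (0.0553 to 0.0618). That at Gm42693 was lost in batch 1 alone (0.234), in batch 2 alone (0.294), without a batch term (0.0718), with DESeq2 (0.0864) and without cKO replicate 1 or any of control replicates 1 to 4 (0.0506 to 0.0856). The other 3 such peaks did not pass. The peak of Paupar, a long noncoding RNA gene upstream of Pax6, had -0.49 ± 0.21 as log2 fold change (adjusted p = 0.254). The Gm13584 peak beyond Lhx2 had 0.20 ± 0.11 (0.28), opposite in sign to the Lhx2 peak. The peak in an intron of Ostm1 beside Nr2e1 had -0.05 ± 0.13 (0.867).

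**Figure D4:**
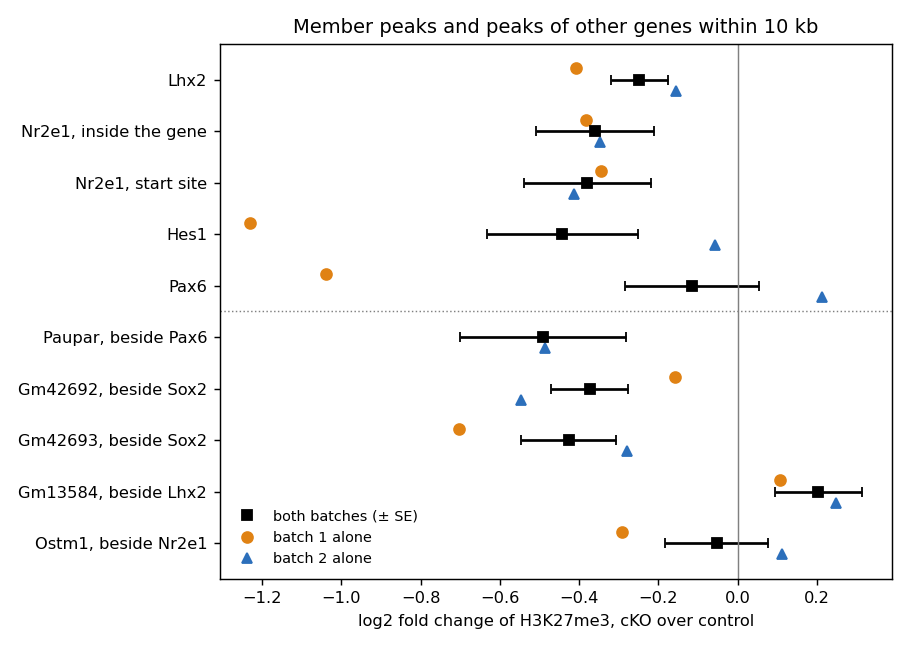
Log2 fold change of H3K27me3, cKO over control, for each member peak (above the dotted line) and each peak of another gene within 10 kb of a member (below it), as squares with SE for both batches and as circles and triangles for batch 1 and batch 2 alone; the Paupar peak had too few reads in batch 1 alone. Hes1 and Pax6 have batch 1 values below -1, while the batches lie close together at both Nr2e1 peaks.

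Genes that share the members' roles were counted from lists. Of 30 other eye field and progenitor genes, 19 had a peak and 16 were tested, of which 2 fell and 0 rose. That is 12.5% of those tested, near the 9.78% of all genes. The 2 were Otx2, a homeobox gene of the optic vesicle and of photoreceptor precursors (580 ± 30.8 CPM in cKO and 726 ± 72.5 CPM in control animals, log2 fold change -0.33 ± 0.07, edgeR adjusted p = 0.00222), and Meis2, a homeobox gene of early progenitors (-0.23 ± 0.06, adjusted p = 0.0223). Among those without a peak were Sox9, Fgf15, Sfrp2, Mab21l2 and Zic2. The median log2 fold change of the 16 was -0.08.

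Of 33 other genes of the Notch pathway, 17 had a peak and all 17 were tested, of which 1 was called (5.88%, against 9.78% of all genes). The ligand gene Jag1 fell (77.2 ± 23.1 CPM in cKO and 97.8 ± 11.9 CPM in control animals, log2 fold change -0.36 ± 0.11, edgeR adjusted p = 0.0474). The ligand genes Dll1, Dll3 and Dll4 had -0.08, -0.05 and 0.15, and the median of the list was 0.013. The receptor genes Notch1, Notch3 and Notch4 carried no peak. Of the 26 paralogs tested, 1 was called (3.85%, against 9.78% of all genes). Nr2f2, a nuclear receptor gene, fell (-0.27 ± 0.07, adjusted p = 0.015), and the median of the list was -0.04.

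Cell types other than progenitors were counted likewise. Among 15 regulators of retinal neurons 2 fell, Atoh7 of ganglion cell precursors (-0.77 ± 0.09, adjusted p = 2.7e-05) and Bhlhe22 of amacrine and bipolar cells (-0.21 ± 0.06, adjusted p = 0.0419). That is 13.3%, near the 9.78% of all genes. Of 21 genes of the pigment epithelium, vessels, microglia, lens and astrocytes, 8 were tested and 1 was called (12.5%, likewise near 9.78%). Mitf, a regulator of pigment cells, fell (154 ± 6.62 CPM in cKO and 174 ± 3.4 CPM in control animals, -0.19 ± 0.05, adjusted p = 0.0282). Whether the cell makeup of the samples had a part in any of these differences was not tested.

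For the members past the threshold, the genes with the most alike pattern over the 10 animals were listed, as log2 CPM less the batch mean, among 11323 other genes. They were Gm43111 (Pearson r = 0.991) and Gm42920 (0.985) for Lhx2, and Ccdc85a (0.957) and Vgll3 (0.941) for Nr2e1. The 10 animals share libraries and depth across genes, and the highest of so many coefficients is a description only.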

How the data were processed

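The authors deposited a table of counts per peak and library for 16 H3K27me3 libraries, raw per the file headers and values. Alignment and peak tools listed per the submitters' processing notes are MACS2, SAMtools and Novoalign 4.02.02, with DESeq2 1.38.1 beside them and mm10 as the build. Which libraries the peaks were called on, the counter and the treatment of duplicate reads were not given in the sources used here. The deposited log2 fold change and adjusted p-value have no named contrast per the file headers. The 6 IgG libraries were not used here. Width and distance to a start site were used as deposited.

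Duplicates (chi-square per degree of freedom 0.876 to 0.979, against 1.08 to 2.90 between animals of a group and batch) were summed. edgeR 4.0.16 (R 4.3.3) was run over all peaks, and over sums of peaks per gene name, with filterByExpr, TMM factors, batch as an additive term, glmQLFTest and Benjamini-Hochberg adjustment. The SE is the log2 fold change divided by the square root of F. CPM used all reads in peaks times the TMM factor. The steps were run on simulated counts with no difference between batches and with changes larger than those at Lhx2 and Nr2e1. That run therefore does not bear on the calls at these genes. RefSeq promoters and gene bodies came from GRCm38.p6. DESeq2 1.42.0 was an alternative. Figures used matplotlib 3.10.9.

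All 9 genes and all their peaks were named, with each called gene of the other lists (at most 8 per list). The members and lists were chosen with earlier results of these data known. Hes7, the Dll and Notch genes and the genes named for lacking a peak were named after their values were seen.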

Additional observations from a re-analysis of the deposited data

Results flagged for a closer look

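In the 12 groups of 5 animals checked (each genotype at the 4 genes and at both single Nr2e1 peaks), 1 animal lay far from the others. Control replicate 2 had 18.1 CPM at Pax6, below the other 4 controls, and the gap to its nearest neighbour was 0.817 of the range of the group. Chance takes the gap past the limit used for 5 values in about 1 in 20 groups. This animal is a female of batch 1, and without control replicate 2 the log2 fold change of Pax6 was -0.077, against -0.126 with all animals, past the threshold in neither case.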

How the results depend on the processing

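Of the alternatives, RLE size factors and no filter kept 2 member genes and 1 member peak past the threshold. Total-count scaling, no batch term, batch 1 alone, batch 2 alone and DESeq2 each left 0 member genes and 0 member peaks, with 2, 3, 4, 1 and 3 member genes at an unadjusted p under 0.05. Leaving out 1 animal left 0 to 2 member genes and 0 to 2 member peaks. Over all genes, 302 were called without a batch term, 736 with DESeq2, 446 with peaks within 2.5 kb of a start site, and 0 by edgeR in batch 1 alone (1506 at an unadjusted p under 0.05). Over all peaks, 364 were called without a batch term, 876 with DESeq2 and 0 by edgeR in batch 1 alone (1828 at an unadjusted p under 0.05). The share of called genes that fell was 84.8%, 61.7% with total-count scaling and 95.9% with DESeq2. For peaks it was 83.5%, 68.4% and 96.3%. Without 1 animal, 838 to 1246 genes and 1090 to 1617 peaks were called. Pax6 turned positive in batch 2 alone (0.21 as a sum and 0.21 as a peak), and without 1 animal it ran from -0.20 to 0.022 as a sum and from -0.21 to 0.028 as a peak. The Ostm1 peak had 0.11 in batch 2 alone and -0.13 to 0.032 without 1 animal. The log2 fold changes of Lhx2, Nr2e1 and Hes1 were negative under every alternative run, from -0.42 to -0.16, -0.44 to -0.31 and -1.25 to -0.06 as sums. The causes were not tested. With the replicate block in place of batch, 1160 genes, 1331 peaks, 2 member genes and 1 member peak were called. The replicate numbers mark no shared origin in the labels. In batch 2 the deviations of same-numbered animals from their group means correlated with r of 0.0287 to 0.114. In batch 1 r was -0.461. That value cannot decide on pairing, because with 2 animals per group the deviations mirror each other. The numbers were not taken to pair the animals. Reads per animal were 15 to 67 at Pax6 and 18 to 52 at Hes1, and whether depth limits these results was not tested.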
